A study of Rattus norvegicus with 48 samples.

Results

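The miR-23, miR-27 and miR-24 miRNAs are made from paired gene clusters, and 5 of the 645 mature miRNAs counted here were chosen by name as their main products: rno-miR-23a-3p, rno-miR-23b-3p, rno-miR-27a-3p, rno-miR-27b-3p and rno-miR-24-3p (rno, rat, is left out below). Their levels were followed in the plasma of 12 male rats, 12 weeks old by the methods, with a circular calvaria defect of 8 mm. The methods name the strain as Sprague-Dawley, whereas Wistar is named elsewhere in the publication. Each rat gave tail vein blood, kept in EDTA, at baseline (week 0, ahead of the operation) and again after 1, 4 and 8 weeks, for a total of 48 samples. The strong (n = 6) and weak (n = 6) regenerators were the rats with the best and the worst healing by bone volume, so that the groups are extremes picked at the end of the study. Defects had been left empty or had received a collagen-hydroxyapatite scaffold alone, loaded with a plasmid for BMP2 and miR-590-5p, or loaded with vesicles of a mesenchymal stromal cell line. Both groups mix treatments, the weak group held no rat with the scaffold alone, and the treatment of each rat was not mapped here. Baseline samples, whose regeneration the labels give as unknown, were grouped by their rat.

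Each cluster is transcribed as 1 RNA from which 3 hairpins are cut, and each hairpin can release a miRNA from its 3′ arm (3p) and from its 5′ arm (5p). A mature miRNA finds its messenger RNA targets mainly through its seed, bases 2 to 8, and lowers their stability and translation. In the literature, miR-23 and miR-27 are known for roles in vessel growth and fat and bone cell differentiation, and miR-24 for roles in the cell cycle and in blood cell formation. miR-23a-3p is also the usual denominator in ratios that monitor haemolysis, since red blood cells hold much miR-451 and its plasma level is taken as little affected by them.

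The sequences matter for how the counts can be read, because the members of a pair differ by a single base outside the seed. The mature sequences of RefSeq (build GRCr8, matched for all 5 members) are shown 5′ to 3′ with the seed in capitals.
miR-23a-3p: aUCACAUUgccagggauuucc
miR-23b-3p: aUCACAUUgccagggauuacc
miR-27a-3p: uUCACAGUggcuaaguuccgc
miR-27b-3p: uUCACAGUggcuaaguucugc
miR-24-3p: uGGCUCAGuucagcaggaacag
Both miR-23 miRNAs share 1 seed and both miR-27 miRNAs another, and no further rat miRNA of the table has either of them or the seed of miR-24-3p. Counted from the 5′ end, miR-23a-3p against miR-23b-3p differs by U19A and miR-27a-3p against miR-27b-3p by C19U, with the other 20 of 21 bases the same. The authors allowed 1 mismatch when they assigned reads, so the division of reads within a pair is uncertain, and this holds for every value given for a single miRNA of a pair. Summed pairs were computed for 3 of the ratios only.

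The genes lie in GRCr8 on the minus strand. Mir23a, Mir27a and Mir24-2 occupy 389 bases at chr19:40859455-40859843, where the annotation holds no other gene. Mir23b, Mir27b and Mir24-1 occupy 814 bases at chr17:1818669-1819482, within the gene Aopep. The genes Fancc and Mir3074 also overlap this stretch. In GRCr8, miR-23a-3p is at chr19:40859778-40859798, miR-27a-3p at chr19:40859614-40859634, miR-23b-3p at chr17:1819405-1819425 and miR-27b-3p at chr17:1819163-1819183. miR-24-3p is encoded in both clusters with 1 sequence (chr19:40859481-40859502 and chr17:1818672-1818693), so its reads cannot be assigned to either. The 5p arms of its hairpins do differ. They are shown with the seed in capitals, since they are the reads that separate the clusters.
miR-24-2-5p (chromosome 19): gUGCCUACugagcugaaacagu
miR-24-1-5p (chromosome 17): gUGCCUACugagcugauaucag

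The authors deposited raw read counts, and levels are given as reads per 1000000 miRNA reads (RPM). Total miRNA counts were 393259 to 1586398 per sample (median 796311), and the 5 members together took 2.89% to 6.48% of them (median 4.41%). The lowest count of any member in any sample was 639, so counting error was small beside the spread between rats. For every 1000 miRNA reads, UniSp2, a spike-in added to each lysate, was read 91.1 to 144 times at week 8 but 23.3 to 60.4 times at the earlier time points. The week 8 samples thus stand apart from the rest of the series, and a processing difference at week 8 and the time after surgery cannot be told apart. All rats were operated on, so age and repeated blood sampling cannot be told apart from the time after surgery at any week. In plasma, the number of cells that release a miRNA and the amount released per cell cannot be told apart either.

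In the order of their levels over the 48 samples, miR-23a-3p came first (17508 RPM ± 4120) and was the 13th most abundant of all miRNAs. It was followed by miR-27b-3p (9802 ± 2326), miR-24-3p (8820 ± 4056), miR-27a-3p (5442 ± 1610) and miR-23b-3p (2130 ± 504; SD, n = 48). All members are 21 or 22 bases long, but the authors kept shorter reads too, so a read need not be a whole miRNA. Levels of different sequences also depend on how well each is ligated. The difference between miR-27b-3p and miR-24-3p was smaller than either SD. miR-23a-3p lay above miR-23b-3p in each sample, and the ratio of miR-23b-3p to miR-23a-3p reads was 0.0974 to 0.175.

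miR-23a-3p was at 11836, 17337 and 25906 RPM at baseline (lowest, median and highest of 12 rats). At week 1 these values were 12426, 13939 and 26444 RPM, at week 4 9937, 17113 and 22913 RPM, and at week 8 14881, 19896 and 24362 RPM. The 4 time points overlapped, with the narrowest spread at week 8.

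miR-23b-3p was at 1457, 2220 and 3206 RPM at baseline, in the same order. It was at 1515, 1886 and 3152 RPM at week 1, at 1202, 1857 and 3148 RPM at week 4, and at 1611, 2233 and 2709 RPM at week 8. All its time points overlapped.

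miR-27a-3p was at 4383, 6437 and 7217 RPM at baseline. It was at 3842, 5535 and 10579 RPM at week 1, at 4135, 6050 and 8770 RPM at week 4, and at 2863, 3494 and 5186 RPM at week 8. At week 8, 11 of the 12 samples lay below all baseline samples, and the same number lay below all week 4 samples.

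miR-27b-3p was at 6397, 10166 and 14368 RPM at baseline. It was at 7995, 9395 and 14544 RPM at week 1, at 6409, 8417 and 16272 RPM at week 4, and at 6987, 9618 and 11375 RPM at week 8. Its time points overlapped throughout.

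miR-24-3p was at 7564, 11260 and 17421 RPM at baseline. It was at 4604, 8405 and 14381 RPM at week 1, at 6123, 11023 and 18924 RPM at week 4, and at 2604, 3874 and 5659 RPM at week 8. The week 8 samples overlapped with neither the baseline nor the week 4 samples. The share of all miRNAs separated this far at week 8 was not counted, here or for miR-27a-3p. Of the 620 tested, 26.1% were called lower than baseline at week 8.

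**Figure D1:**
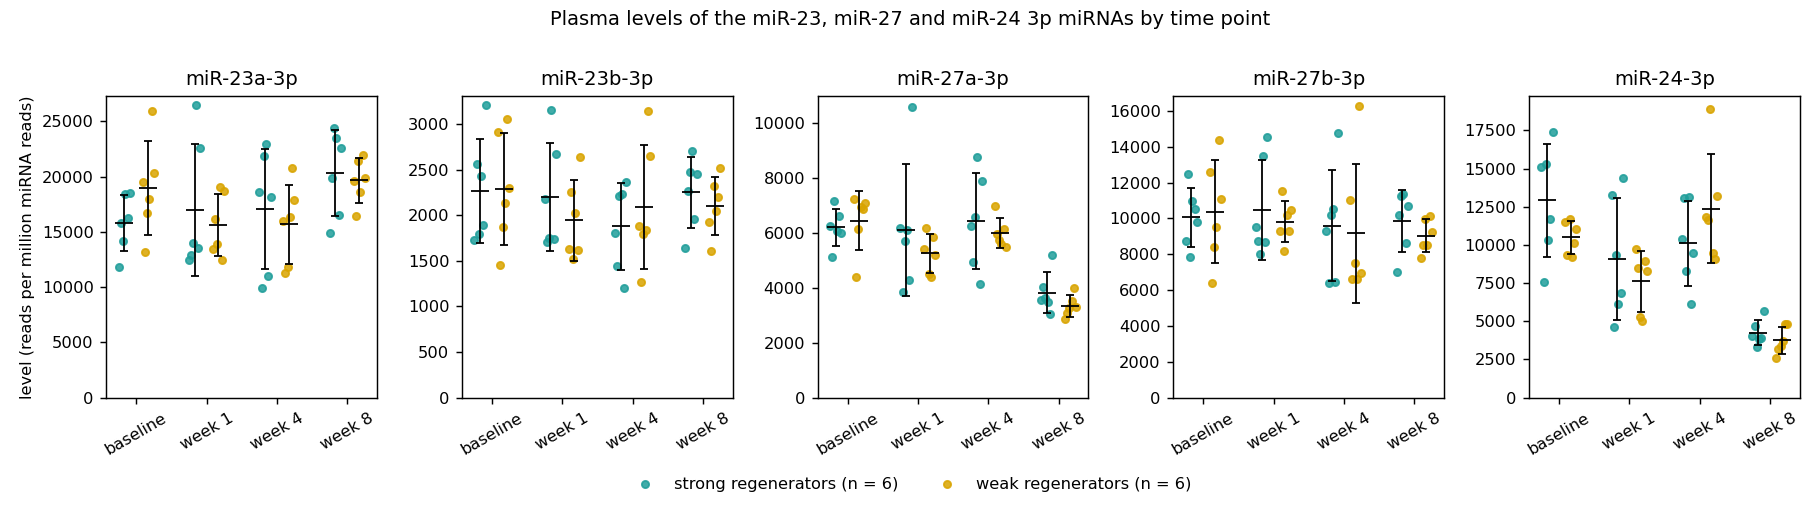
Level of each miRNA (y axis, RPM, from 0) at the 4 time points (x axis) in strong (turquoise) and weak (yellow) regenerators, 1 point per sample, with mean ± SD (n = 6). miR-24-3p lies at 2604 to 5659 RPM at week 8 against 7564 to 17421 RPM at baseline, and both groups lie in the same range for each miRNA.

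The first question was which members changed against baseline. At week 8, miR-24-3p and miR-27a-3p were lower and miR-23a-3p was slightly higher, whereas miR-23b-3p and miR-27b-3p did not pass the test. miR-24-3p was 2.82-fold lower at week 8 (log2 fold change -1.50, SE 0.16, FDR 6.5e-11, edgeR quasi-likelihood test). In RPM, as for all counts of rats given for a single miRNA, all 12 rats had less of it than at baseline. miR-27a-3p was 1.69-fold lower (log2 fold change -0.76, SE 0.10, FDR 2.6e-08), again in 12 of 12 rats. miR-23a-3p was 1.21-fold higher (log2 fold change 0.27, SE 0.10, FDR 0.0304), in 10 of 12 rats. This call was lost when counts were scaled by library size (FDR 0.247) or when rat 2 was left out (log2 fold change 0.25, FDR 0.0524). The log2 fold change was 0.00 (95% interval -0.22 to 0.22, FDR 1) for miR-23b-3p and -0.04 (-0.26 to 0.17, FDR 0.796) for miR-27b-3p. Of the 620 miRNAs tested at week 8, 26.1% were called lower and 14.2% higher, and with so few members 2 of 5 lower and 1 of 5 higher is no more than this background gives to read.

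At week 1, none of the members was called, with 21.6% of the 232 miRNAs tested called in either direction. miR-24-3p was lower in RPM in 12 of 12 rats, but with TMM it did not reach an FDR under 0.05 (log2 fold change -0.39, SE 0.16, unadjusted p = 0.0191, FDR 0.0764 by edgeR). It passed under 3 other scalings, with an FDR of 0.0487 for library size, 0.0462 for RLE and 0.0263 for UniSp2. The other 4 members lay between -0.06 and 0.09. At week 4, none was called and 4.19% of the 645 miRNAs tested were. The members lay between -0.12 (miR-23b-3p) and 0.06 (miR-27a-3p), and miR-24-3p was back at 0.05 (SE 0.16, FDR 0.936).

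Between weeks 1 and 4, 0 of 645 miRNAs were called (0%) by edgeR, with 79 at an unadjusted p under 0.05, 1 call by DESeq2 and 4 with the rat as a block. Among the members, miR-24-3p had the largest difference, 0.43 on the log2 scale (SE 0.16, unadjusted p = 0.00926, FDR 0.33), and was higher at week 4 in 8 of 12 rats. From week 4 to week 8, miR-24-3p was lower by a log2 fold change of -1.54 (SE 0.16, FDR 1.0e-10) and miR-27a-3p by -0.82 (SE 0.10, FDR 4.5e-09), both in 12 of 12 rats. miR-23a-3p was higher by 0.28 (SE 0.10, FDR 0.0264) in 11 of 12 rats, a call that library size scaling lost (FDR 0.098). miR-23b-3p differed by 0.12 (FDR 0.39) and miR-27b-3p by 0.01 (FDR 0.977). In this comparison, 25.8% of 532 miRNAs were called lower and 14.3% higher. The comparisons with baseline share the baseline samples, and those with week 4 share the week 4 samples.

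The scaling decides the absolute level at week 8. Over the 310 miRNAs that averaged 10 RPM or more, the log2 fold change had a median of -0.12 with TMM and of -2.01 with UniSp2 reads. On the UniSp2 scale all 5 members were called lower at week 8, from -1.67 for miR-23a-3p to -3.39 for miR-24-3p. A scaling shifts all miRNAs of a sample alike, so the distance of a member from the median of the same scaling is nearly fixed by construction and is given as a description only. With TMM, this distance was -1.37 for miR-24-3p, -0.64 for miR-27a-3p, 0.40 for miR-23a-3p, 0.13 for miR-23b-3p and 0.08 for miR-27b-3p (log2 scale). With UniSp2 it was -1.38, -0.67, 0.34, 0.05 and 0.00 in the same order. The split of all calls moved from 162 lower and 88 higher with TMM to 498 lower and 1 higher with UniSp2.

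**Figure D2:**
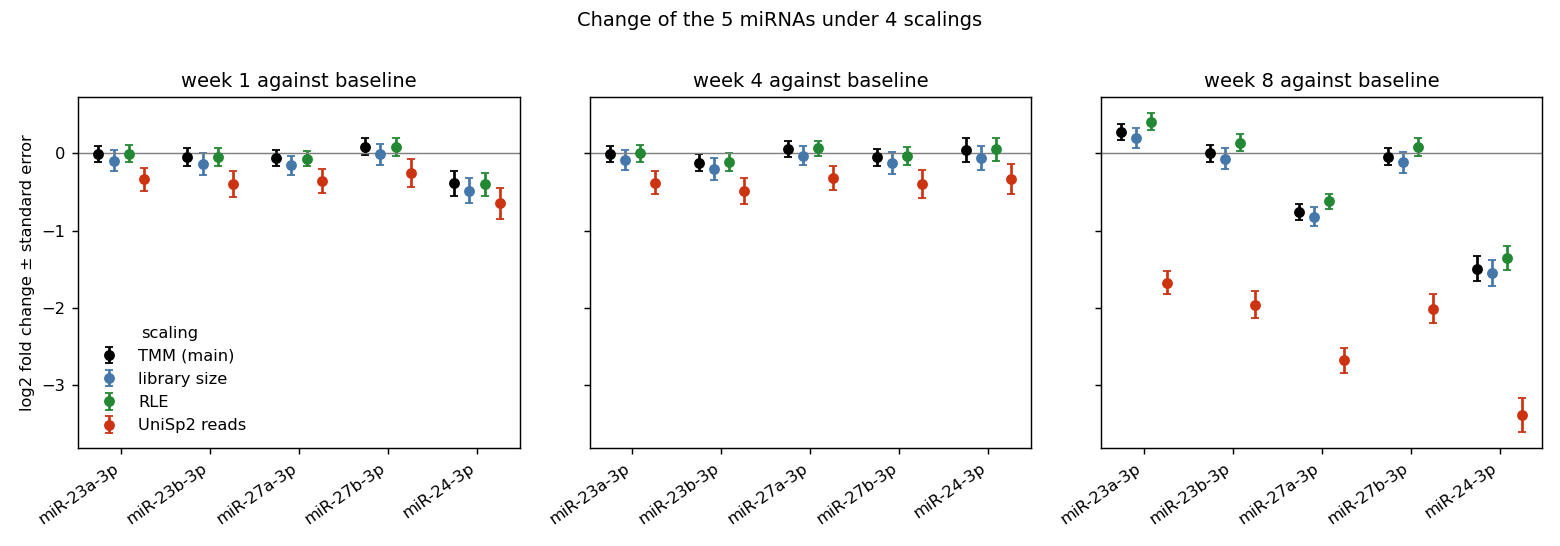
Log2 fold change ± SE (y axis) of the 5 miRNAs (x axis) at weeks 1, 4 and 8 against baseline (panels) under 4 scalings of the counts (colours), n = 12 rats per time point. The UniSp2 scale moves all 5 down at week 8, to between -1.67 and -3.39.

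Ratios of miRNAs within a sample do not depend on scaling. For them too, a processing difference at week 8 and the time after surgery cannot be told apart. The proportion of miR-27 to miR-23 changed at week 8 for the chromosome 19 products, and no change was called for those of chromosome 17. miR-24-3p comes from both clusters, so its ratio to miR-23a-3p is not one within a cluster. Ratios were compared within rats by exact sign-flip permutation tests (n = 12 rats, two-sided, adjusted over 24 tests), for which 0.000488 is the smallest p possible. The ratio of miR-24-3p to miR-23a-3p had a median of 0.646 at baseline and of 0.209 at week 8, and all 12 week 8 samples lay below all baseline samples. Its mean change was -1.76 on the log2 scale (SE 0.17, exact permutation p = 0.000488, adjusted p = 0.00293). Against the sum of miR-23a-3p and miR-23b-3p, the mean change of miR-24-3p was -1.73 (SE 0.17, exact permutation adjusted p = 0.00293). The ratio of miR-27a-3p to miR-23a-3p, both of the chromosome 19 cluster, went from a median of 0.359 to 0.183, again without overlap. Its mean change was -1.04 (SE 0.10, exact permutation adjusted p = 0.00293). The ratio of miR-27b-3p to miR-23b-3p, the same pair of products from chromosome 17, had a median of 4.49 at baseline and of 4.32 at week 8. Its mean change was -0.05 (SE 0.07, exact permutation adjusted p = 0.643), with 9 of 12 rats lower. The share of all pairs of miRNAs whose ratio separates fully at week 8 was not counted. Of the 620 miRNAs tested, 26.1% were called lower and 14.2% higher than baseline at week 8.

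Within the near-identical pairs, the share of the chromosome 19 product fell for miR-27 and rose for miR-23. miR-27a-3p relative to miR-27b-3p went from a median of 0.636 at baseline to 0.363 at week 8, by a mean of -0.73 (SE 0.11, 12 of 12 rats lower, exact permutation adjusted p = 0.00293). miR-23b-3p relative to miR-23a-3p went from 0.123 to 0.109, by a mean of -0.26 (SE 0.07, 10 of 12 rats lower, exact permutation adjusted p = 0.0195). With both pairs summed, which removes the division of reads within a pair, the ratio of miR-27 to miR-23 reads changed by a mean of -0.52 at week 8 (SE 0.06, 12 of 12 rats lower, exact permutation adjusted p = 0.00293).

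With all 12 rats, none of the ratios was called at week 1 or week 4. At week 1, miR-24-3p relative to miR-23a-3p had a mean change of -0.43 (SE 0.16, 10 of 12 rats lower, exact permutation p = 0.0283, adjusted p = 0.0755). Without rat 25 it was -0.55 (exact permutation adjusted p = 0.0134), and the ratio of miR-24-2-5p to miR-24-3p, described next, then also passed (0.45, exact permutation adjusted p = 0.0117). For each of these ratios, only this 1 of the 12 runs with a rat left out passed. The exact permutation adjusted p reached 0.145 and 0.132 with other rats left out. At week 4 the mean change of miR-24-3p relative to miR-23a-3p was 0.03 (SE 0.26, exact permutation adjusted p = 0.938).

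**Figure D3:**
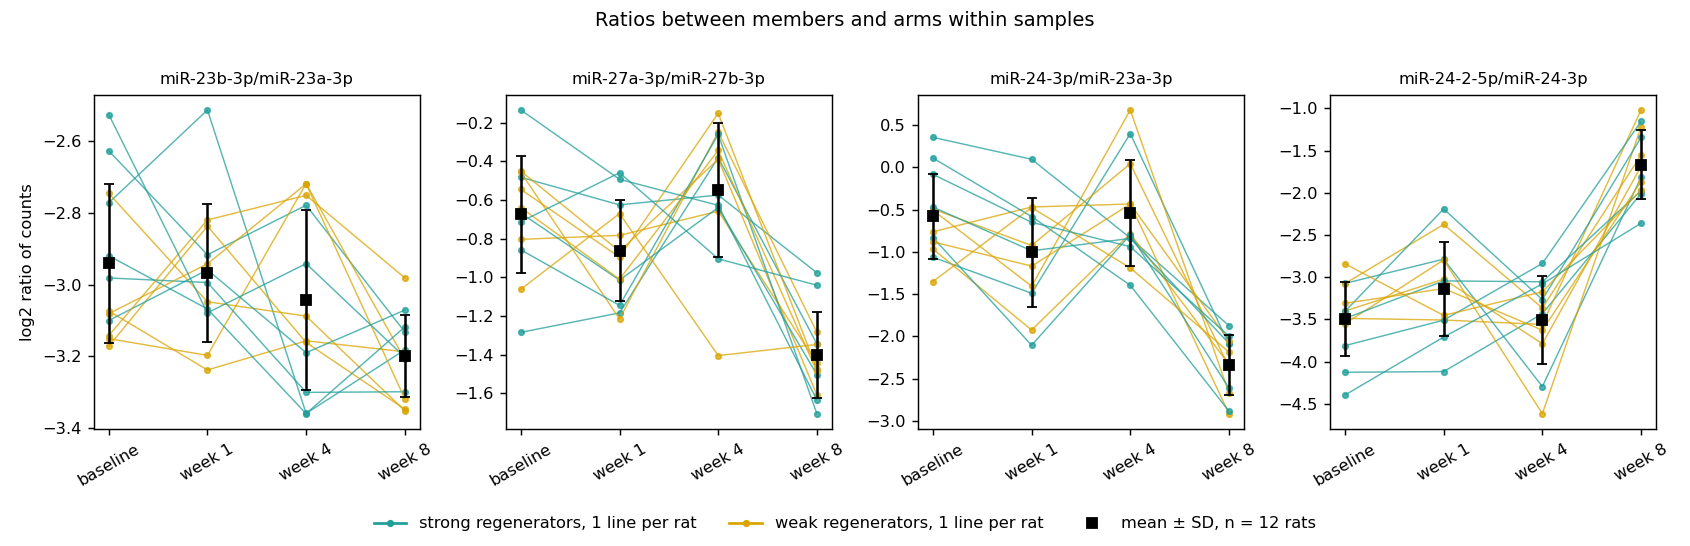
Log2 ratio of read counts (y axis) at the 4 time points (x axis) for 4 pairs of miRNAs, 1 line per rat (turquoise strong, yellow weak), squares mean ± SD (n = 12). At week 8 the ratio of miR-24-3p to miR-23a-3p lies below, and that of miR-24-2-5p to miR-24-3p above, all baseline values. The share of all pairs of miRNAs separated this far was not counted.

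The other arms of the hairpins were less abundant, and only miR-24-2-5p reached a mean above 1000 RPM. On the TMM scale it moved in the opposite direction to miR-24-3p, and it was not computed on the UniSp2 scale. miR-24-2-5p was at 826, 1011 and 1414 RPM at baseline (lowest, median and highest) and at 989, 1273 and 1516 RPM at week 8. It was higher at week 8 (log2 fold change 0.36, SE 0.09, FDR 0.0013) in 10 of 12 rats. The 2 arms of the Mir24-2 hairpin are shown in capitals, the 5p arm first (chr19:40859455-40859562, GRCr8, minus strand).
Mir24-2: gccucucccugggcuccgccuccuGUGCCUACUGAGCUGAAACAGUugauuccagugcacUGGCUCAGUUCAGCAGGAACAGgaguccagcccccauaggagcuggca
The ratio of miR-24-2-5p to miR-24-3p had a median of 0.0918 at baseline and of 0.297 at week 8. All 12 week 8 samples lay above all baseline samples, with a mean change of 1.83 (SE 0.15, exact permutation adjusted p = 0.00293). The share of all pairs of miRNAs separated this far was not counted. miR-24-3p also comes from Mir24-1, whose 5p arm was at a mean of 4.57 RPM. The share of miR-24-3p that comes from each hairpin was not measured.

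Of the 6 other arms, 2 were called higher at week 8, beside 14.2% of all miRNAs tested, and 1 was called lower, beside 26.1%. miR-23a-5p was higher (log2 fold change 0.65, SE 0.18, FDR 0.00257) in 11 of 12 rats. It had a median of 36.1 RPM at baseline and of 47.5 RPM at week 8. miR-23b-5p was lower (log2 fold change -1.50, SE 0.41, FDR 0.00243), with a median count of 6.5 at baseline and of 1 at week 8, where 3 of 12 samples held none. miR-27a-5p (0.38, FDR 0.291), miR-27b-5p (-0.55, FDR 0.382) and miR-24-1-5p (-0.42, FDR 0.422) did not pass. From week 4 to week 8, miR-23a-5p (0.91, FDR 3.4e-05), miR-27a-5p (0.83, FDR 0.0191) and miR-24-2-5p (0.35, FDR 0.002) were higher and miR-23b-5p (-1.43, FDR 0.00408) was lower. At week 1 only miR-24-2-5p was abundant enough to be tested, and neither it nor any of the 6 at week 4 was called. The products that can come only from the chromosome 19 cluster thus moved in both directions at week 8, with miR-23a-3p, miR-23a-5p and miR-24-2-5p higher and miR-27a-3p lower, on the TMM scale. The call of miR-23a-3p was lost with library size, as given above, and with UniSp2 miR-23a-3p was called lower (log2 fold change -1.67). The 5p arms were not computed on the other scales, so that both directions are shown for the TMM scale only.

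miR-23a-3p served as the denominator of haemolysis ratios, and the answer depended on the red blood cell miRNA set against it. The ratio of miR-451-5p, the leading miRNA of red blood cells, to miR-23a-3p was at 1.68, 4.93 and 7.62 at baseline (lowest, median and highest), at 2.41, 6.70 and 12.8 at week 1, at 2.96, 5.89 and 12.4 at week 4 and at 4.93, 8.18 and 11.9 at week 8. At week 8 its mean change on the log2 scale was 0.80 (SE 0.14, 11 of 12 rats higher, exact permutation adjusted p = 0.00469). At week 1 it was 0.52 (SE 0.20, 11 of 12 rats higher, exact permutation p = 0.0239, adjusted p = 0.0718), and without rat 21 it was 0.67 (exact permutation adjusted p = 0.00469). At week 4 it was 0.40 (SE 0.19, exact permutation adjusted p = 0.131), and without rat 21 it was 0.52 (exact permutation adjusted p = 0.0352). At both weeks, only this 1 of the 12 runs with a rat left out passed. The exact permutation adjusted p reached 0.128 at week 1 and 0.215 at week 4 with other rats left out. With miR-16-5p in place of miR-451-5p, the change at week 8 had the other sign, -0.38 (SE 0.13, 11 of 12 rats lower, exact permutation adjusted p = 0.0753). With miR-486 it was -0.06 (SE 0.11, exact permutation adjusted p = 0.773). Against the sum of miR-23a-3p and miR-23b-3p, the change of miR-451-5p at week 8 was 0.83 (SE 0.14, exact permutation adjusted p = 0.00234).

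**Figure D4:**
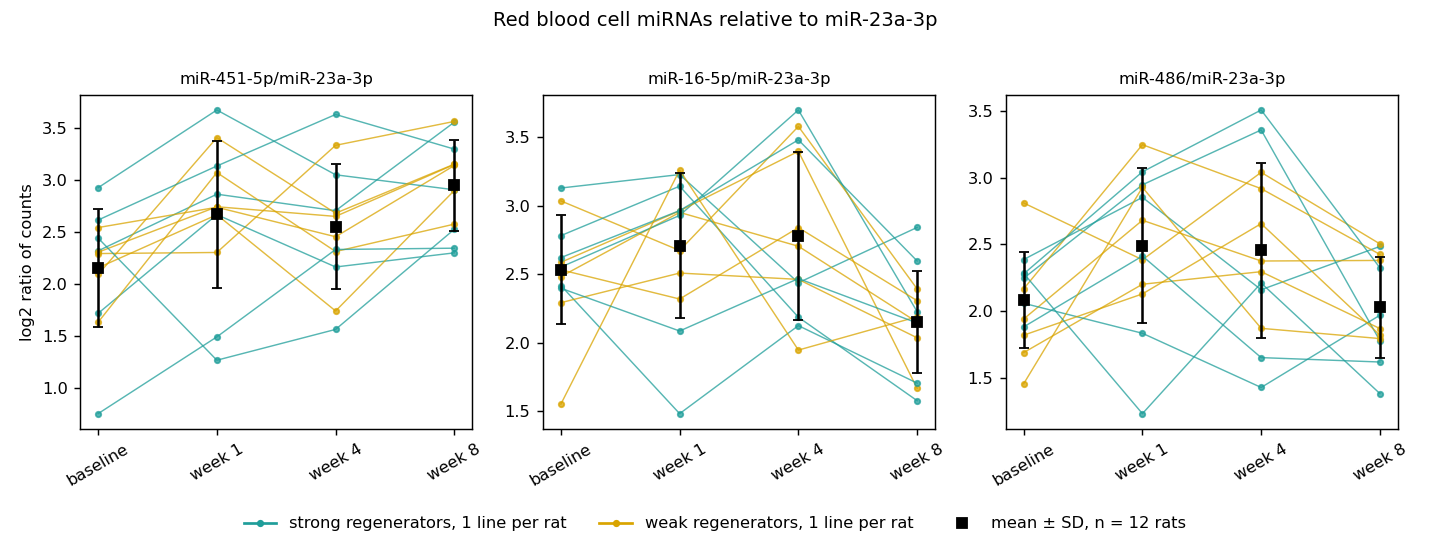
Log2 ratio of miR-451-5p, miR-16-5p and miR-486 reads to miR-23a-3p reads (y axis) at the 4 time points (x axis), 1 line per rat (turquoise strong, yellow weak), squares mean ± SD (n = 12). From baseline to week 8 the ratio of miR-451-5p changes by a mean of 0.80, that of miR-16-5p by -0.38 and that of miR-486 by -0.06.

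The variation of miR-23a-3p between samples was also measured, as a denominator is taken to be steady. Its coefficient of variation in RPM was 23.5%, the 39th lowest of the 310 miRNAs with a mean of at least 10 RPM, whose median was 41.6%. miR-23b-3p (23.7%) and miR-27b-3p (23.7%) were next to it, at the 40th and 41st place. miR-27a-3p (29.6%) was 77th and miR-24-3p (46.0%) 176th. Without the week 8 samples, miR-23a-3p had 24.9% and the 79th place, and miR-27a-3p had the lowest value of the 5, 21.9%.

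Blood cell and vessel miRNAs were listed as markers of the cells that plasma RNA can come from, and their part in the members' values was not tested. Of all miRNAs tested, 12.5% were called higher at week 1, 4.19% were called in either direction at week 4, and 14.2% were called higher and 26.1% lower at week 8, against which the counts of the short lists are to be read. The summed level of 8 red blood cell miRNAs was 266386 to 369955 RPM at baseline, 282235 to 486325 RPM at week 1, 301409 to 483699 RPM at week 4 and 355671 to 482992 RPM at week 8. Of these 8, 6 were called higher at week 1, none at week 4, and 5 higher and 1 lower at week 8. The summed level of 6 white blood cell miRNAs was 16400 to 60349 RPM at baseline and 9554 to 21709 RPM at week 8, when 4 were called lower (miR-142-5p, miR-150-5p, miR-146a-5p and miR-146b-5p) and 2 higher (miR-142-3p and miR-155-5p). It was 12689 to 41526 RPM at week 1 and 13563 to 54368 RPM at week 4, with none called. Of 6 platelet miRNAs, 2 were called higher at week 8 and none at weeks 1 and 4, with sums of 78846 to 126423 RPM over the 4 time points. Of 8 vessel miRNAs, 1 was called higher at week 1, none at week 4 and 3 at week 8, with sums of 19785 to 101174 RPM. No miRNA of these lists was at 0 throughout a time point.

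Across the 48 samples, the members fell into 2 patterns. miR-23a-3p, miR-23b-3p and miR-27b-3p correlated with each other on log2(RPM + 1), with a Pearson r of 0.80 for both miR-23 miRNAs, 0.78 for miR-23b-3p with miR-27b-3p and 0.68 for miR-23a-3p with miR-27b-3p. miR-27a-3p correlated with miR-24-3p (r = 0.85), and miR-24-3p had an r between -0.30 and 0.03 with the other 3. These are descriptions over 48 samples of 12 rats, which share the library total and the shift at week 8. Over the 36 samples before week 8, r was 0.60 for miR-27a-3p with miR-24-3p and 0.54 for miR-27a-3p with both miR-23a-3p and miR-27b-3p.

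Beyond the members, the miRNAs with a mean of at least 10 RPM and the most similar pattern over the 48 samples were miR-30d-5p (r = 0.96), miR-30b-5p (0.95) and miR-30e-5p (0.94) for miR-24-3p. Before week 8 these values were 0.92, 0.86 and 0.85. For miR-27a-3p they were miR-148a-3p (0.89) and miR-148b-3p (0.84), beside miR-24-3p, and before week 8 these values were 0.71 and 0.59. For miR-23a-3p they were miR-24-2-5p (0.86, and 0.86 before week 8) and miR-22-3p (0.81 and 0.81), beside miR-23b-3p. For miR-23b-3p the next after its relatives was miR-100-5p (0.71, and 0.79 before week 8), and for miR-27b-3p they were miR-218a-5p (0.86 and 0.89) and miR-205 (0.71 and 0.77), beside miR-23b-3p.

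The second question was whether strong and weak regenerators differed. Over all time points, none of the 5 members was called and the log2 fold changes of strong against weak regenerators lay between -0.06 (miR-23a-3p, 95% interval -0.21 to 0.08) and 0.04 (miR-24-3p, -0.18 to 0.27). The intervals of miR-23b-3p (-0.19 to 0.12), miR-27a-3p (-0.10 to 0.19) and miR-27b-3p (-0.16 to 0.16) also held 0. These intervals treat the 4 samples of a rat as independent, although regeneration is a trait of the rat, and can be too narrow. By edgeR, 0 of 645 miRNAs were called (0%), with 64 at an unadjusted p under 0.05. At the single time points, no member was called either, where 0% of 645 miRNAs were called at baseline, week 1 and week 4 and 0.155% at week 8, with 42, 32, 25 and 35 at an unadjusted p under 0.05. The widest gaps were for miR-24-3p at week 4 (-0.35, 95% interval -0.79 to 0.09, FDR 0.851) and at baseline (0.29, -0.15 to 0.73, FDR 0.725) and for miR-23a-3p at baseline (-0.25, -0.55 to 0.04, FDR 0.703). The groups overlapped for each member at each time point.

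The level of miR-24-3p in strong regenerators was at 7564, 13419 and 17421 RPM at baseline (lowest, median and highest of 6), at 4604, 8079 and 14381 RPM at week 1, at 6123, 9949 and 13172 RPM at week 4 and at 3300, 3978 and 5659 RPM at week 8. In weak regenerators it was at 9219, 10588 and 11716 RPM, at 5023, 8405 and 9714 RPM, at 9083, 11732 and 18924 RPM and at 2604, 3538 and 4817 RPM, at the same time points. The change from baseline to week 4 was -0.28 in strong and 0.36 in weak regenerators. The difference between these changes was -0.64 (95% interval -1.26 to -0.02, unadjusted p = 0.0491, FDR 0.705 by edgeR). No difference in the change was called for any member at weeks 1, 4 or 8, and 0% of the 645 miRNAs were called at each, with 27, 38 and 26 at an unadjusted p under 0.05. At week 8, miR-24-3p and miR-27a-3p were called lower than baseline in each group, by contrasts of 1 fit over all 48 samples. Of all miRNAs, 120 of 532 tested were called lower in strong and 104 of 520 in weak regenerators. miR-24-3p was lower by a log2 fold change of -1.61 in strong (FDR 2.2e-07) and -1.37 in weak regenerators (FDR 4.8e-06). For miR-27a-3p these values were -0.70 (FDR 0.000302) and -0.82 (FDR 3.9e-05).

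**Figure D5:**
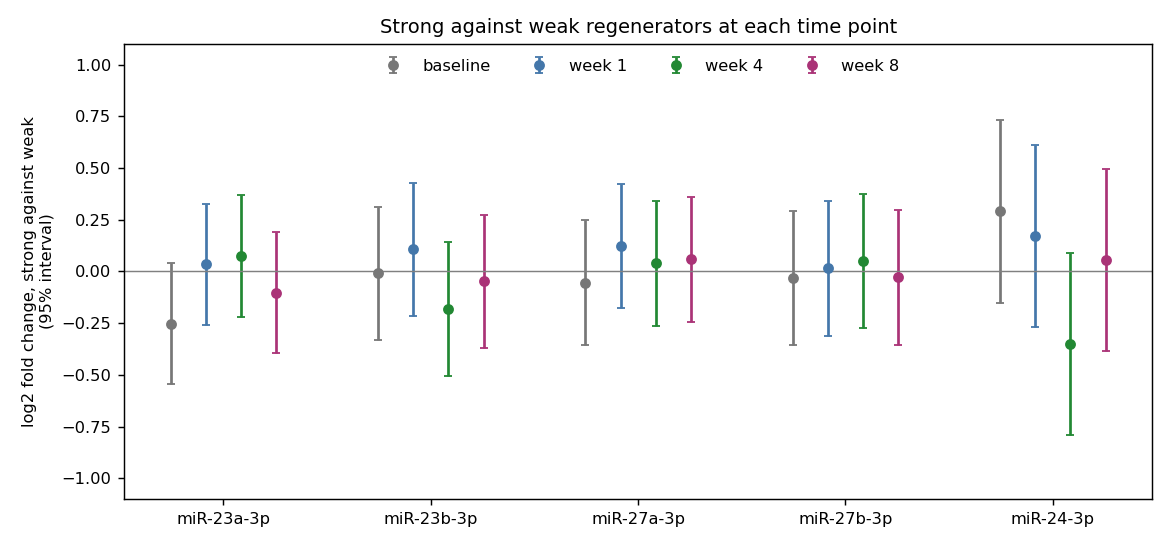
Log2 fold change of strong against weak regenerators (y axis, bars 95% interval, n = 6 against 6 rats) for the 5 miRNAs (x axis) at each time point (colours). Each of the 20 intervals holds 0, with the widest for miR-24-3p.

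None of the 8 ratios passed an exact permutation test of strong against weak regenerators over the 12 rats, either at a time point or as the mean of the 4 time points, with the smallest adjusted p at 0.895 over 40 tests. The smallest unadjusted values were for miR-23b-3p to miR-23a-3p at baseline (strong minus weak 0.24 on the log2 scale, exact permutation p = 0.0649) and for miR-24-2-5p to miR-24-3p at baseline (-0.44, exact permutation p = 0.0844). The ratio of miR-451-5p to miR-23a-3p had means on the log2 scale of 2.51 in strong and 2.65 in weak regenerators over the 4 time points (exact permutation p = 0.604). Of the other arms, miR-27a-5p had the smallest FDR over all time points (log2 fold change 0.49, FDR 0.306 by edgeR).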

How the data were processed

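Plasma small RNA of 48 samples (12 rats, 4 time points) was sequenced after single-adapter ligation and PCR. The methods describe no molecular identifiers, so copies made by PCR cannot be told from separate molecules in the counts. By the methods, the authors trimmed reads with cutadapt 3.3, mapped them with bowtie 1.3.0 and miRDeep2 to Rnor_6.0 and assigned them to rat miRBase entries with 1 mismatch. The submitters' processing notes list the human build GRCh38.p12, and the labels give another plasma volume than the methods. The authors deposited raw counts for 645 miRNAs and 3 spike-ins, without normalization.

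RPM was computed on the miRNA total (393259 to 1586398 counts per sample). Counts were tested with R 4.3.3 and edgeR 4.0.16 (TMM, quasi-likelihood, independent filter after DESeq2's rule, Benjamini-Hochberg, FDR under 0.05, two-sided), with the time point as a term, or the regeneration group and the time point, or the 8 groups. The 4 samples of a rat were treated as independent. The SE is the log2 fold change divided by the square root of F. Ratios were log2 of counts + 1, tested by exact permutation over rats (Python 3.11.15, numpy 2.4.6, scipy 1.17.1, pandas 2.3.3; plots with matplotlib 3.10.9). Scripts were tested on simulated data.

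Sample numbers name the rat, so they pair the samples. Deviations from group means correlated with a mean r of 0.107 over 72 pairs of samples of the same rat and of -0.03 over 1056 other pairs. Named are the 5 members, the other arms of their hairpins, 4 marker lists and the 3 miRNAs most like each member. Members and lists were chosen with earlier results of these data known. Sequences and positions are from RefSeq (GRCr8). miR-23a-5p was matched by name only. Alternatives were other scalings (library size, RLE, UniSp2), filterByExpr or no filter, DESeq2 1.42.0, limma-voom (limma 3.58.1), the rat as a block or summed, fewer time points, each rat left out, a pseudocount of 0.5 and other ratios. Those of week 4 against week 1 and of week 8 against week 4 were chosen after seeing the data. Treatment, histology, bone volume and predicted targets were not analysed here.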

Additional observations from a re-analysis of the deposited data

Results flagged for a closer look

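In 1 of 40 groups of 6 samples, one per member, regeneration group and time point, a sample lay apart from the others by Dixon's criterion, and chance alone gives about 1 in 20. miR-27a-3p was at 10579 RPM in rat 29 of the strong regenerators at week 1. The next sample was at 6155 RPM and the lowest at 3842 RPM, so that the gap made up 0.657 of the range. The change of miR-27a-3p at week 1 was not called with or without this rat.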

How the results depend on the processing

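The lower levels of miR-24-3p and miR-27a-3p at week 8 were called under every alternative run for them, with ranges over the rats left out of -1.54 to -1.33 and -0.78 to -0.58 (log2 fold change). At week 1, 1 member (miR-24-3p) was called with library size, RLE or UniSp2 in place of TMM. With UniSp2, 1 member (miR-23b-3p, -0.49) was called at week 4 and 5 at week 8 and for week 8 against week 4.

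Directions that turned were, at week 1, miR-27b-3p with library size (-0.010) and UniSp2 (-0.25) and miR-23a-3p in a fit of only the time points compared (0.022). At week 4 they were miR-27a-3p (-0.027 and -0.32) and miR-24-3p (-0.059 and -0.33) with library size and UniSp2, and miR-23a-3p with RLE (0.0011), DESeq2 (0.0010) and only the time points compared (0.0018). At week 8 they were miR-23b-3p with library size (-0.067) and UniSp2 (-1.96), miR-23a-3p with UniSp2 (-1.67), and miR-27b-3p with RLE (0.089) and DESeq2 (0.089). For week 4 against week 1 it was miR-23a-3p with library size (0.0068), RLE (0.0028), DESeq2 (0.0028) and only the time points compared (0.0021). For week 8 against week 4, with UniSp2, they were miR-23a-3p (-1.29), miR-23b-3p (-1.47) and miR-27b-3p (-1.62). For strong against weak regenerators they were miR-23a-3p (0.0084) and miR-23b-3p (0.027) with library size, miR-27a-3p (-0.033), miR-27b-3p (-0.10) and miR-24-3p (-0.032) with UniSp2, and at week 8 miR-23b-3p (0.0038) and miR-27b-3p (0.028) with the samples of that time point alone. Among ratios they were miR-451-5p to miR-23a-3p at week 8 with miR-16-5p (-0.38) or miR-486 (-0.056) in its place, and miR-27a-3p to miR-23a-3p at week 1 with summed pairs (0.037). The causes were not tested.

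With each rat left out, the ranges that crossed 0 or a threshold were as follows. At week 1 they were -0.056 to 0.067 for miR-23a-3p and -0.087 to 0.015 for miR-23b-3p. At week 4 they were -0.086 to 0.026 for miR-23a-3p, -0.0050 to 0.086 for miR-27a-3p, -0.15 to 0.019 for miR-27b-3p and -0.049 to 0.10 for miR-24-3p. At week 8 they were 0.25 to 0.45 for miR-23a-3p, -0.022 to 0.15 for miR-23b-3p and -0.062 to 0.13 for miR-27b-3p. For week 4 against week 1 the range was -0.052 to 0.021 for miR-23a-3p, and for week 8 against week 4 it was -0.025 to 0.19 for miR-27b-3p. For strong against weak regenerators they were -0.074 to 0.014 for miR-23b-3p, -0.020 to 0.094 for miR-27a-3p, -0.038 to 0.049 for miR-27b-3p and -0.029 to 0.089 for miR-24-3p. Among ratios they were -0.060 to 0.021 (miR-23b-3p to miR-23a-3p, week 1), 0.28 to 0.45 and -0.13 to 0.10 (miR-24-2-5p to miR-24-3p, weeks 1 and 4), -0.55 to -0.35 and -0.095 to 0.17 (miR-24-3p to miR-23a-3p, weeks 1 and 4), -0.043 to 0.13 (miR-27b-3p to miR-23b-3p, week 4), 0.30 to 0.46 (miR-23a-5p to miR-23a-3p, week 8) and 0.44 to 0.67 and 0.30 to 0.52 (miR-451-5p to miR-23a-3p, weeks 1 and 4).

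The number of all miRNAs called at week 1 was 50, 32 with library size, 25 without a filter and 24 to 47 with a rat left out, and 29 or fewer without rat 5, 7, 16, 17, 23, 25 or 29. At week 4 it was 27 and 61 with UniSp2, at week 8 250 and 499 with UniSp2, and for week 8 against week 4 213 and 468 with UniSp2. For strong against weak regenerators it was 0 to 2 with a rat left out, and at week 8 it was 1 and 0 with the samples of that time point alone. For week 4 against week 1 it was 0, 0 to 1 with a rat left out, and 1 with DESeq2.

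With the rat as a block, the pairing moved miR-24-3p to -0.41 at week 1, with an FDR of 0.0662, and to -1.47 at week 8, with an FDR of 2.7e-11. miR-23a-3p at week 8 had 0.28, with an FDR of 0.0189. The block gave 4 calls for week 4 against week 1 in place of 0 and changed no call of a member.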
